A study of Homo sapiens with 8 samples.

Results

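Serine/arginine-rich (SR) proteins bind exons through RNA recognition motifs and recruit the splicing machinery through domains of repeated arginine and serine residues. Genes of this family carry poison exons, which are alternative exons that bring in a premature stop codon, and transcripts that include one are substrates of nonsense-mediated mRNA decay (NMD). Several SR proteins promote the inclusion of the poison exon of their own gene, so that a surplus of protein lowers the productive transcript. The genes described here are the SR factors SRSF1, SRSF2, SRSF3, SRSF4, SRSF5, SRSF6, SRSF7 and SRSF10 and the SR-like proteins TRA2A and TRA2B, and all probe sets that the array annotation gives to exactly 1 of these 10 genes were taken, irrespective of their signal. Of the 10 genes, 9 had such a probe set, with 42 probe sets among the 41097 that carry a single symbol, and 9 of 19775 genes. The 3 probe sets of SRSF2, an SR factor that regulates its own transcript through NMD, carry several symbols and were not analysed here.

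Inhibition of NMD in 2 steps was applied to LNCaP and 22Rv1, which are established prostate cancer cell lines, and RNA was measured on 8 Affymetrix U133 Plus 2.0 arrays, 1 per line and treatment. Actinomycin D with caffeine denotes cells kept for 4 h in 10 mM caffeine, a drug used there to inhibit NMD, then washed and kept for another 4 h in 2 µg/ml actinomycin D, which blocks transcription, together with 10 mM caffeine. Actinomycin D alone denotes cells that had the same 4 h of caffeine and then actinomycin D without it, caffeine denotes cells collected after the first 4 h, and untreated denotes cells collected after 4 h without either drug. Caffeine minus untreated is called accumulation, the difference of actinomycin D with caffeine over actinomycin D alone is called degradation, actinomycin D alone minus caffeine is called decay, and actinomycin D with caffeine minus caffeine is called loss with caffeine kept. Signals are log2 values that the authors quantile normalized, so every difference is relative to the other transcripts on the arrays. Each line has 1 array per treatment, so the lines served as the 2 replicates of a treatment in limma, and the test took the probe sets that averaged 4 or more over the 8 arrays.

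The arrays differed in ways that touch the comparisons. The 24 poly-A spike-in probe sets, which detect bacterial transcripts added to the RNA, averaged 7.71 on LNCaP and 7.97 on 22Rv1 arrays of actinomycin D alone, against 6.18 and 6.80 on the caffeine arrays of those lines. Within quantile-normalized data they were thus 1.53 and 1.18 higher in decay, and scaling on them moved the median of all probe sets tested in decay to -1.30 and in loss with caffeine kept to -0.93. The 5′ minus 3′ difference of the ACTB control probe sets was 0.86 and 0.52 higher in decay in LNCaP and 22Rv1, and that of the poly-A probe sets 0.51 and 0.60 higher. In degradation the ACTB difference changed by -0.61 and -0.40 and the poly-A one by -1.10 and -0.53. That of the GAPDH control probe sets moved less, by 0.08 and 0.11 in decay and by 0.09 and -0.07 in degradation. The LNCaP array of actinomycin D with caffeine stood apart in its 18S rRNA probe sets, which averaged 11.7 there and 6.25 with actinomycin D alone. Of the prostate epithelial markers, all 8 with a probe set had a log2 signal of at least 4 on every array, and 0 of the 4 leukocyte markers with a probe set reached it on any. Of 6 fibroblast markers, COL1A1, DCN and LUM reached that signal on some array. LUM lay between 2.27 and 2.46 on the LNCaP arrays and between 9.42 and 10.2 on the 22Rv1 arrays. COL1A1 had 5.82 with actinomycin D alone and 8.39 with caffeine in LNCaP, and 7.96 with actinomycin D alone and 8.65 with caffeine in 22Rv1. The part of the spike-in shift, the 5′ to 3′ difference and these markers in the results below was not tested. In these arrays, fewer cells that make a transcript and less of it per cell cannot be told apart.

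Of the 42 probe sets, 27 had a signal of at least 4 on all 8 arrays, 9 reached it on some arrays and 6 on none, and 32 had a mean of at least 4 and were tested. Those that reached it on none were SRSF3 237485_at, SRSF4 239511_s_at and 241245_at, SRSF7 211439_at, TRA2A 227939_s_at and TRA2B 239447_at. A probe set that passes the filter only through the treatment in which it is high was bound to differ, and the counts below are read with that limit. Probe sets whose names end in _x_at, 6 of the 42, can also bind transcripts of similar sequence, and 16 ending in _s_at bind several transcripts of a gene or family. The exon each probe set covers is not given in the sources used here, so no probe set can be tied to a poison exon.

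**Figure D1:**
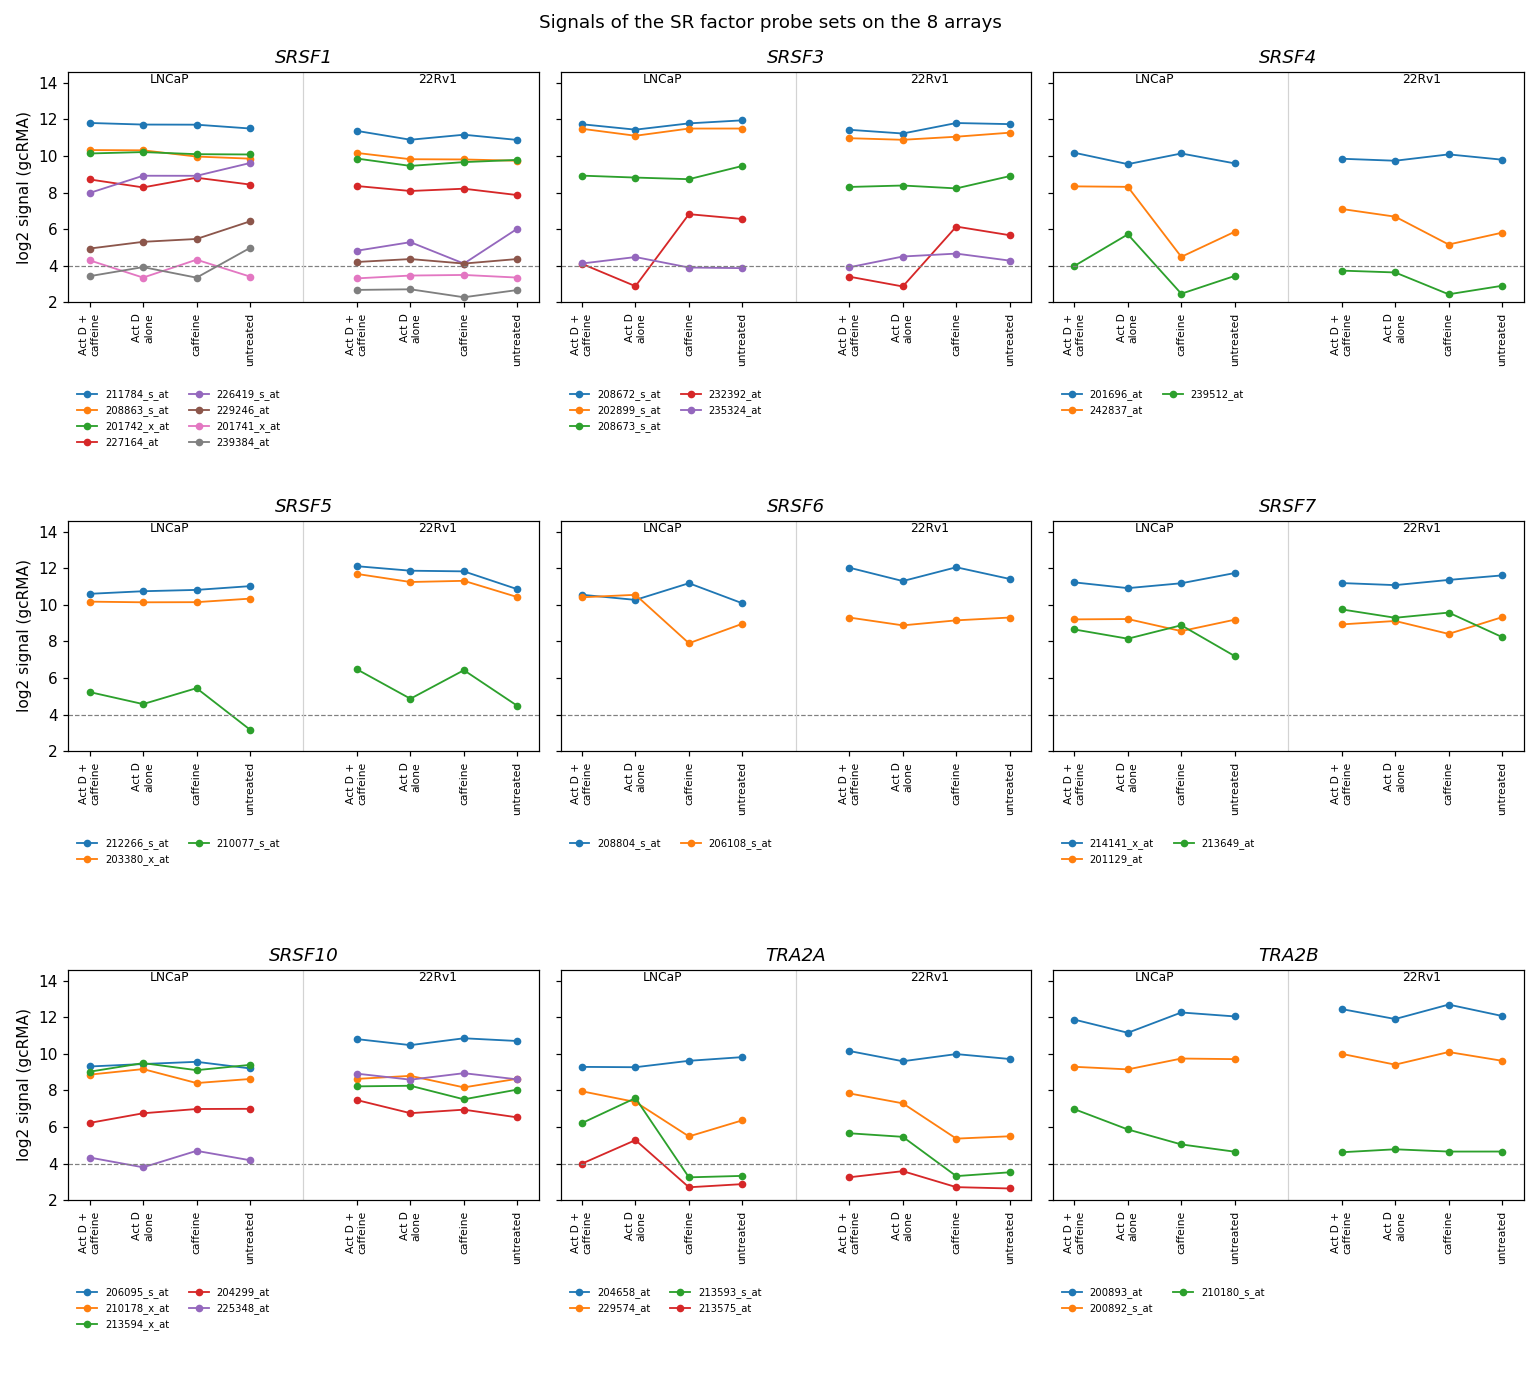
Log2 signals (vertical axes) of the 36 SR factor probe sets with a signal of at least 4 on some array, by gene and by treatment (horizontal axes, LNCaP left and 22Rv1 right), with lines joining the arrays of a line and the dashed line at 4. The brightest probe set of each gene stayed between 9.20 and 12.7, while dimmer ones such as SRSF3 232392_at and TRA2A 213593_s_at differed between arrays with and without actinomycin D.

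The brightest probe set of each gene is the one with the highest mean. Over the 4 arrays of a line these probe sets ranged most in SRSF5 in 22Rv1 (1.26), TRA2B in LNCaP (1.11) and SRSF6 in LNCaP (1.10). No such probe set differed by 1 or more in the same direction in both lines in any of the 4 comparisons. Scaled on the poly-A probe sets, all 9 were lower by 1 or more in both lines in decay and 3 of 9 in loss with caffeine kept, where 10678 of 20013 and 3887 of 19942 of all probe sets were. Without that scaling, over these 9 probe sets the median difference in LNCaP and 22Rv1 was 0.21 and 0.29 in accumulation and 0.28 and 0.33 in degradation, and it was -0.34 and -0.38 in decay. Over the brightest probe sets of all genes the medians were -0.02 and -0.02 in accumulation, 0.10 and -0.02 in degradation, and -0.09 and 0.03 in decay.

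SRSF1, the prototype SR protein, lies on chromosome 17 from 57989038 to 58007246 (GRCh38.p14, as are all positions below). Its brightest probe set, 211784_s_at, had 11.81 with actinomycin D and caffeine, 11.72 with actinomycin D alone, 11.71 with caffeine and 11.50 untreated in LNCaP, and 11.37 with actinomycin D and caffeine, 10.89 with actinomycin D alone, 11.16 with caffeine and 10.88 untreated in 22Rv1. In 22Rv1 both caffeine-containing treatments lay above actinomycin D alone and untreated, and in LNCaP the untreated array was the lowest. SRSF3, the smallest member of the family (chromosome 6, 36594362 to 36605600), had for 208672_s_at 11.73 with actinomycin D and caffeine, 11.44 with actinomycin D alone, 11.78 with caffeine and 11.95 untreated in LNCaP, and 11.43 with actinomycin D and caffeine, 11.23 with actinomycin D alone, 11.80 with caffeine and 11.74 untreated in 22Rv1. Actinomycin D alone was the lowest array of each line. SRSF4 (chromosome 1, 29147743 to 29181900), an SR protein with a long arginine/serine domain, had for 201696_at 10.18 with actinomycin D and caffeine, 9.55 with actinomycin D alone, 10.14 with caffeine and 9.59 untreated in LNCaP, and 9.85 with actinomycin D and caffeine, 9.74 with actinomycin D alone, 10.09 with caffeine and 9.80 untreated in 22Rv1. Both arrays with caffeine were above both without it in each line.

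SRSF5 (chromosome 14, 69767142 to 69772005), first found as an insulin-induced growth response gene in rat liver, had for 212266_s_at 10.61 with actinomycin D and caffeine, 10.75 with actinomycin D alone, 10.82 with caffeine and 11.03 untreated in LNCaP, and 12.12 with actinomycin D and caffeine, 11.87 with actinomycin D alone, 11.83 with caffeine and 10.86 untreated in 22Rv1. The untreated array was the lowest in 22Rv1 and the highest in LNCaP. SRSF6 (chromosome 20, 43457896 to 43464243), a close relative of SRSF4 and SRSF5, had for 208804_s_at 10.55 with actinomycin D and caffeine, 10.27 with actinomycin D alone, 11.19 with caffeine and 10.09 untreated in LNCaP, and 12.03 with actinomycin D and caffeine, 11.30 with actinomycin D alone, 12.06 with caffeine and 11.42 untreated in 22Rv1. Here too the arrays with caffeine lay above those without it in both lines. SRSF7 (chromosome 2, 38743599 to 38751494), the SR protein with a zinc knuckle, had for 214141_x_at 11.23 with actinomycin D and caffeine, 10.92 with actinomycin D alone, 11.18 with caffeine and 11.74 untreated in LNCaP, and 11.19 with actinomycin D and caffeine, 11.08 with actinomycin D alone, 11.37 with caffeine and 11.61 untreated in 22Rv1. The untreated array was the highest and actinomycin D alone the lowest in each line.

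SRSF10 (chromosome 1, 23964347 to 23980327), which represses splicing when dephosphorylated after heat shock, had for 206095_s_at 9.31 with actinomycin D and caffeine, 9.44 with actinomycin D alone, 9.56 with caffeine and 9.20 untreated in LNCaP, and 10.80 with actinomycin D and caffeine, 10.47 with actinomycin D alone, 10.85 with caffeine and 10.70 untreated in 22Rv1. All 22Rv1 arrays lay above all LNCaP arrays, and the treatments lay within 0.36 of each other in LNCaP and 0.38 in 22Rv1. TRA2A (chromosome 7, 23504780 to 23531981), 1 of the 2 human homologues of the fly sex determination factor transformer-2, had for 204658_at 9.29 with actinomycin D and caffeine, 9.27 with actinomycin D alone, 9.62 with caffeine and 9.82 untreated in LNCaP, and 10.15 with actinomycin D and caffeine, 9.59 with actinomycin D alone, 9.99 with caffeine and 9.72 untreated in 22Rv1. The lines ranked the treatments differently. TRA2B (chromosome 3, 185914558 to 185938014), the other homologue, had for 200893_at 11.87 with actinomycin D and caffeine, 11.15 with actinomycin D alone, 12.26 with caffeine and 12.05 untreated in LNCaP, and 12.45 with actinomycin D and caffeine, 11.90 with actinomycin D alone, 12.69 with caffeine and 12.07 untreated in 22Rv1. Actinomycin D alone was the lowest and caffeine the highest array in each line.

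Accumulation asked which transcripts were higher after 4 h of caffeine than without it. Probe sets of SRSF7 and SRSF5 that are not the brightest of their gene were higher with caffeine by 1 or more in both lines, while the other probe sets of those genes were not. Of 30 probe sets detected in both lines, meaning a signal of at least 4 on 1 of the 2 arrays compared, these 2 were higher by 1 or more in both and 0 were lower, against 3.04% and 1.65% of all probe sets. By limma 0 of 32 passed an adjusted p of 0.05 upwards and 0 downwards, where 0.042% and 0.00466% of all probe sets were called, and at an unadjusted p under 0.05 there were 3 higher and 3 lower, against 2156 and 1638 of all 21453. The median over the 32 was 0.15, against -0.03 over all 21453 tested.

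SRSF7 213649_at had 8.66 with actinomycin D and caffeine, 8.15 with actinomycin D alone, 8.89 with caffeine and 7.20 untreated in LNCaP, and 9.75 with actinomycin D and caffeine, 9.30 with actinomycin D alone, 9.58 with caffeine and 8.24 untreated in 22Rv1. In both lines the 3 arrays of drug-treated cells lay above the untreated array. Accumulation was 1.69 in LNCaP and 1.34 in 22Rv1, with a limma estimate of 1.51 ± 0.21 (SE, n = 2 lines, adjusted p = 0.0691). The other detected SRSF7 probe sets did not share this: 214141_x_at differed by -0.56 and -0.25, and 201129_at by -0.62 and -0.92. Set against 214141_x_at, 213649_at was 1.92 ± 0.27 higher with caffeine (SE, n = 2 lines, limma adjusted p = 0.107), a difference that did not pass the threshold.

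SRSF5 210077_s_at had 5.23 with actinomycin D and caffeine, 4.57 with actinomycin D alone, 5.45 with caffeine and 3.18 untreated in LNCaP, and 6.48 with actinomycin D and caffeine, 4.87 with actinomycin D alone, 6.43 with caffeine and 4.48 untreated in 22Rv1. The untreated array was the lowest of each line, in LNCaP below the detection limit of 4, and in each line both arrays with caffeine lay above actinomycin D alone. Accumulation was 2.27 in LNCaP, or 1.45 with the untreated signal set to 4, and 1.95 in 22Rv1, with a limma estimate of 2.11 ± 0.30 (SE, n = 2 lines, adjusted p = 0.0691). Scaled on the poly-A probe sets its accumulation was 2.35, with a limma adjusted p of 0.0327. Scaled on the hybridization controls, a scaling added after seeing the data, SRSF5 210077_s_at and SRSF7 213649_at had adjusted p of 0.00427 and 0.0161 in limma. These scalings raised accumulation in general. The median over all 21453 probe sets was 0.20 with poly-A and 0.29 with hybridization scaling, against -0.03 without. By limma they called 159 and 909 of all probe sets higher, against 9. The brighter SRSF5 probe sets 212266_s_at and 203380_x_at differed in accumulation by -0.21 and -0.19 in LNCaP and by 0.98 and 0.89 in 22Rv1.

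Other members differed in the same direction in both lines without reaching 1 in each. SRSF6 208804_s_at was 1.10 and 0.64 higher with caffeine in LNCaP and 22Rv1 (limma 0.87 ± 0.23, SE, n = 2 lines, adjusted p = 0.153). SRSF3 208673_s_at was lower, by -0.73 and -0.67 (limma adjusted p = 0.156), and SRSF1 226419_s_at by -0.70 and -1.91 (limma adjusted p = 0.190). SRSF4 242837_at differed by -1.37 and -0.65, opposite in sign to the brightest SRSF4 probe set, at 0.54 and 0.29.

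**Figure D2:**
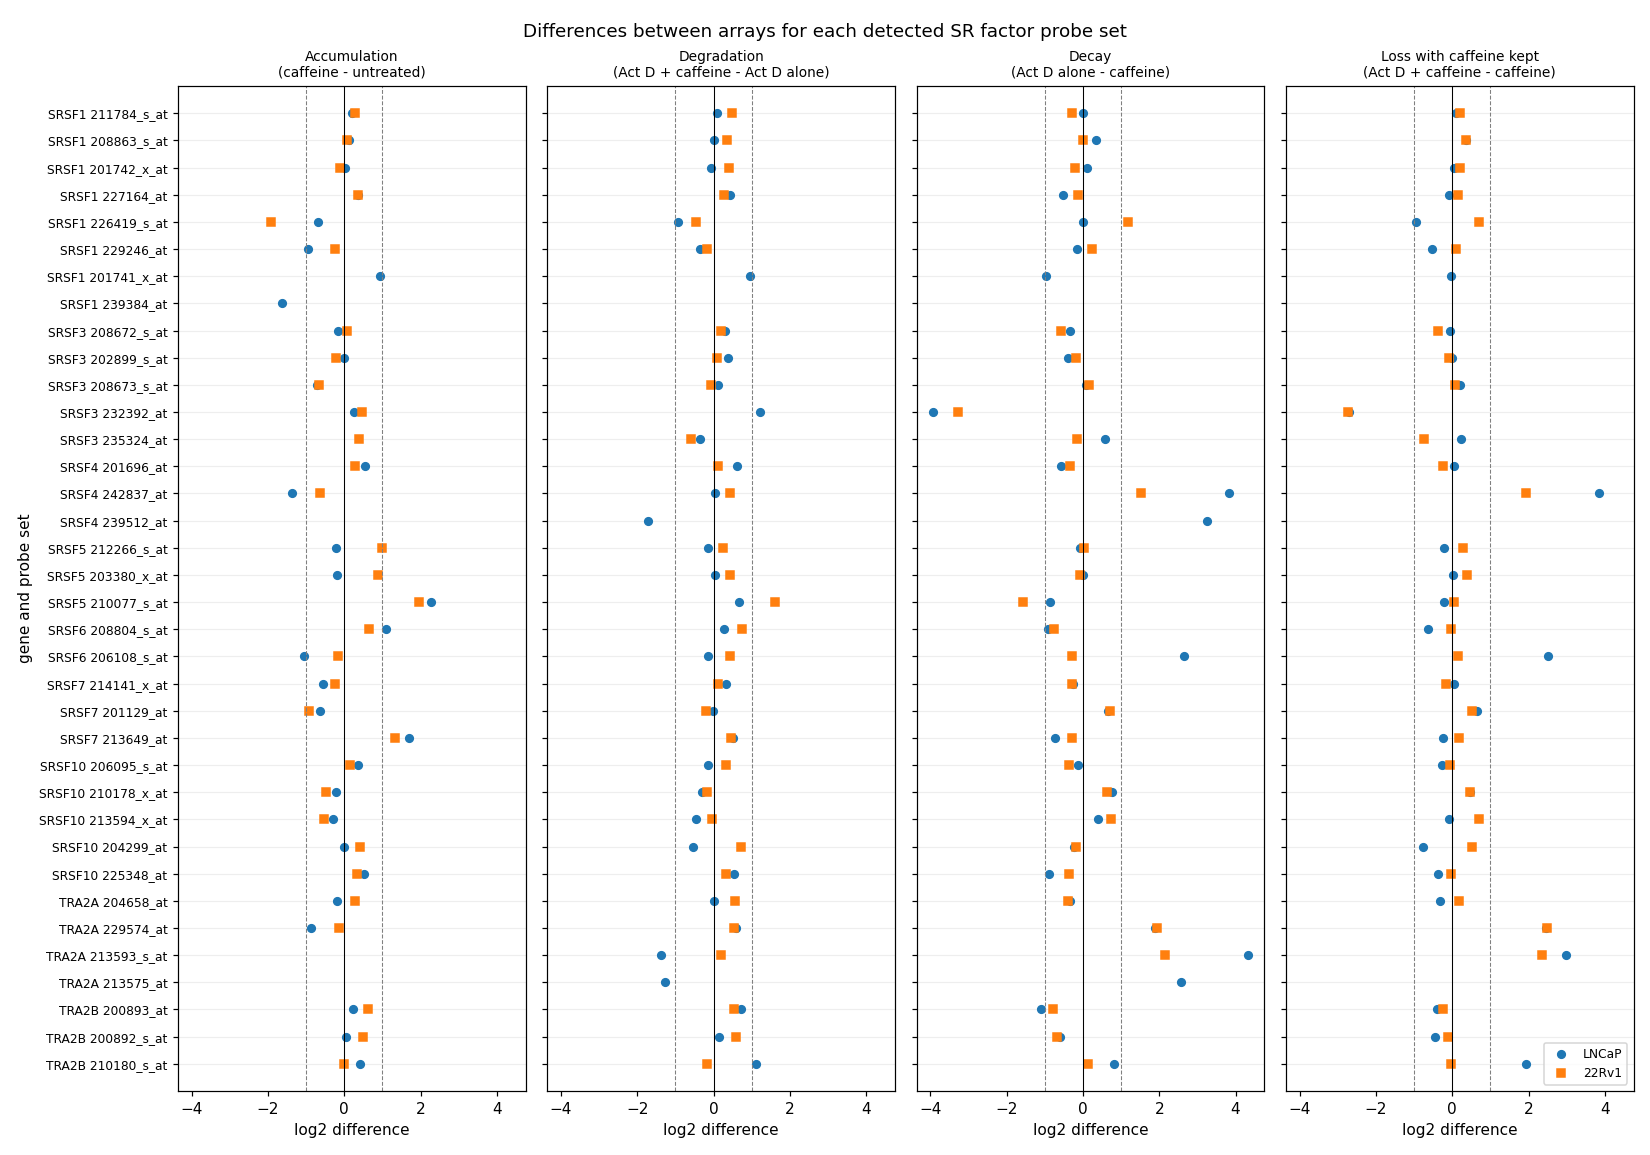
Difference in log2 signal (horizontal axes) for each SR factor probe set (rows) in the 4 comparisons (panels), with a point per line where 1 of the 2 arrays reached 4 and dashed lines at -1 and 1. Most points lie between the dashed lines, and SRSF3 232392_at, SRSF4 242837_at and TRA2A 229574_at and 213593_s_at lie outside them in decay in both lines.

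Degradation asked which transcripts stayed higher where caffeine was kept than where it was withdrawn, once transcription was blocked. No SR factor probe set was higher or lower by 1 or more in both lines, 0 of 31 detected in each direction, against 1.16% and 0.41% of all probe sets. By limma 0 of 32 members were called, as were 0% of all 21453 probe sets, and 3 members were higher and 0 lower at an unadjusted p under 0.05, against 1022 and 690 of all. These 3 were SRSF5 210077_s_at at 0.66 in LNCaP and 1.61 in 22Rv1 (limma 1.13 ± 0.30, SE, n = 2 lines, adjusted p = 0.468), TRA2B 200893_at at 0.72 and 0.54, and SRSF3 232392_at, whose signals there lay at or under the detection limit and gave 0.10 in LNCaP and 0 in 22Rv1 when signals under 4 were set to 4. The median over the 32 was 0.23, against 0.00 over all probe sets.

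The lines differed in their extremes of degradation. In LNCaP, TRA2A 213593_s_at differed by -1.37 and 213575_at by -1.29, and SRSF4 239512_at by -1.73, whereas TRA2B 210180_s_at was 1.11 higher. SRSF3 232392_at was 1.22 higher there, from signals of 4.10 and 2.88. In 22Rv1 TRA2A 213593_s_at was at 0.19, TRA2B 210180_s_at at -0.16 and SRSF3 232392_at at 0.54, the last with both signals under 4. TRA2A 213575_at and SRSF4 239512_at stayed under 4 on all 22Rv1 arrays and reached 4 in LNCaP with actinomycin D alone, at 5.28 and 5.71. These differences involve the array with the high 18S rRNA signal. The 5′ to 3′ differences of the ACTB and poly-A probe sets given above also moved in degradation, that of GAPDH less so. The part of the rRNA signal and of these differences was not tested.

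Decay asked what happened to the transcripts once transcription was blocked and caffeine withdrawn. A probe set of SRSF3 fell below the detection limit of 4 and a probe set of TRA2A rose relative to the other transcripts, while the brightest probe sets of these genes differed by less than 1. Of 32 members detected, 3 were higher by 1 or more in both lines and 1 was lower, against 2.28% and 4.97% of all probe sets. Those higher were SRSF4 242837_at and TRA2A 229574_at and 213593_s_at, so they are not all from separate genes. TRA2A 213593_s_at counted as detected only through the arrays with actinomycin D. Scaled on the poly-A probe sets, 0 members were higher in both lines, as were 22 of all 20013 probe sets. By limma 1 of 32 was called higher and 1 lower, against 0.475% and 1.86% of all probe sets, and 5 were higher and 6 lower at an unadjusted p under 0.05, against 2168 and 2495 of all 21453. The median over the 32 was -0.09, against 0.05 over all probe sets.

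SRSF3 232392_at had 4.10 with actinomycin D and caffeine, 2.88 with actinomycin D alone, 6.82 with caffeine and 6.55 untreated in LNCaP, and 3.40 with actinomycin D and caffeine, 2.86 with actinomycin D alone, 6.14 with caffeine and 5.66 untreated in 22Rv1. In each line both arrays with actinomycin D lay below both without it, and of these only LNCaP with actinomycin D and caffeine reached 4. Decay was -3.94 in LNCaP and -3.28 in 22Rv1, and by limma it fell by 3.61 ± 0.27 (SE, n = 2 lines, adjusted p = 0.0257). Setting signals under 4 to 4 left decay at -2.82 and -2.14. Its mean of 4.80 passed the filter only through the arrays without actinomycin D, so the filter favoured a fall and the call is read with that limit. Where caffeine was kept it differed by -2.72 and -2.74 (limma -2.73 ± 0.27, SE, n = 2 lines, adjusted p = 0.107). The other detected SRSF3 probe sets, 208672_s_at, 202899_s_at, 208673_s_at and 235324_at, differed in decay by between -0.57 and 0.57.

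TRA2A 229574_at had 7.95 with actinomycin D and caffeine, 7.37 with actinomycin D alone, 5.48 with caffeine and 6.36 untreated in LNCaP, and 7.83 with actinomycin D and caffeine, 7.29 with actinomycin D alone, 5.36 with caffeine and 5.49 untreated in 22Rv1. Both arrays with actinomycin D lay above both without it in each line. Decay was 1.88 in LNCaP and 1.93 in 22Rv1, and by limma it rose by 1.91 ± 0.27 (SE, n = 2 lines, adjusted p = 0.0341). Scaled on the poly-A probe sets it was 0.36 and 0.75 higher in decay, and limma gave 0.56 (adjusted p = 0.174). Where caffeine was kept it was 2.47 higher in LNCaP and 2.47 higher in 22Rv1 (limma adjusted p = 0.107).

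Another TRA2A probe set, 213593_s_at, had 6.21 with actinomycin D and caffeine, 7.58 with actinomycin D alone, 3.24 with caffeine and 3.32 untreated in LNCaP, and 5.65 with actinomycin D and caffeine, 5.46 with actinomycin D alone, 3.31 with caffeine and 3.52 untreated in 22Rv1. It was under 4 on all 4 arrays without actinomycin D and at 5.46 or more on all 4 arrays with it. Decay was 4.33 in LNCaP and 2.15 in 22Rv1 (limma 3.24 ± 0.57, SE, n = 2 lines, adjusted p = 0.0506), 3.58 and 1.46 with signals under 4 set to 4, and 2.81 and 0.97 scaled on the poly-A probe sets. The probe set passed the filter only through the actinomycin D arrays. SRSF4 242837_at had 8.34 with actinomycin D and caffeine, 8.31 with actinomycin D alone, 4.48 with caffeine and 5.86 untreated in LNCaP, and 7.10 with actinomycin D and caffeine, 6.68 with actinomycin D alone, 5.16 with caffeine and 5.80 untreated in 22Rv1. Again the actinomycin D arrays lay above the other arrays of each line. Decay was 3.83 and 1.52 (limma 2.68 ± 0.57, SE, n = 2 lines, adjusted p = 0.0730), and 2.30 and 0.35 when scaled on the poly-A probe sets.

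Loss with caffeine kept shares its caffeine arrays with decay. There 3 of 32 detected members were higher by 1 or more in both lines and 1 was lower, against 1.2% and 1.97% of all probe sets. Besides SRSF3 232392_at and TRA2A 229574_at, given above, these were TRA2A 213593_s_at at 2.97 in LNCaP and 2.34 in 22Rv1, and SRSF4 242837_at at 3.85 and 1.94. By limma 0 of 32 were called in that comparison, as were 0% of all probe sets, and 4 were higher and 1 lower at an unadjusted p under 0.05, against 1196 and 1432 of all 21453. Some members differed in decay in 1 line only. SRSF6 206108_s_at had 10.55 with actinomycin D alone and 7.90 with caffeine in LNCaP, a decay of 2.65, against -0.27 in 22Rv1. The brightest SRSF6 probe set, 208804_s_at, was lower in both lines, by -0.91 and -0.75, and TRA2B 200893_at by -1.11 and -0.79 (limma adjusted p = 0.104).

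The calls in decay rested on few arrays. Without any 1 of the caffeine, actinomycin D alone or actinomycin D with caffeine arrays, limma called 0 of 21453 probe sets in decay, and both member calls held only without either untreated array, which decay does not compare. The estimate for SRSF3 232392_at then lay between -3.98 and -3.24 and that for TRA2A 229574_at between 1.76 and 2.05. Scaled on the poly-A probe sets, 24 of 32 members were called lower in decay and 2 higher, where 17490 of all 21453 probe sets were called lower and 59 higher.

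**Figure D3:**
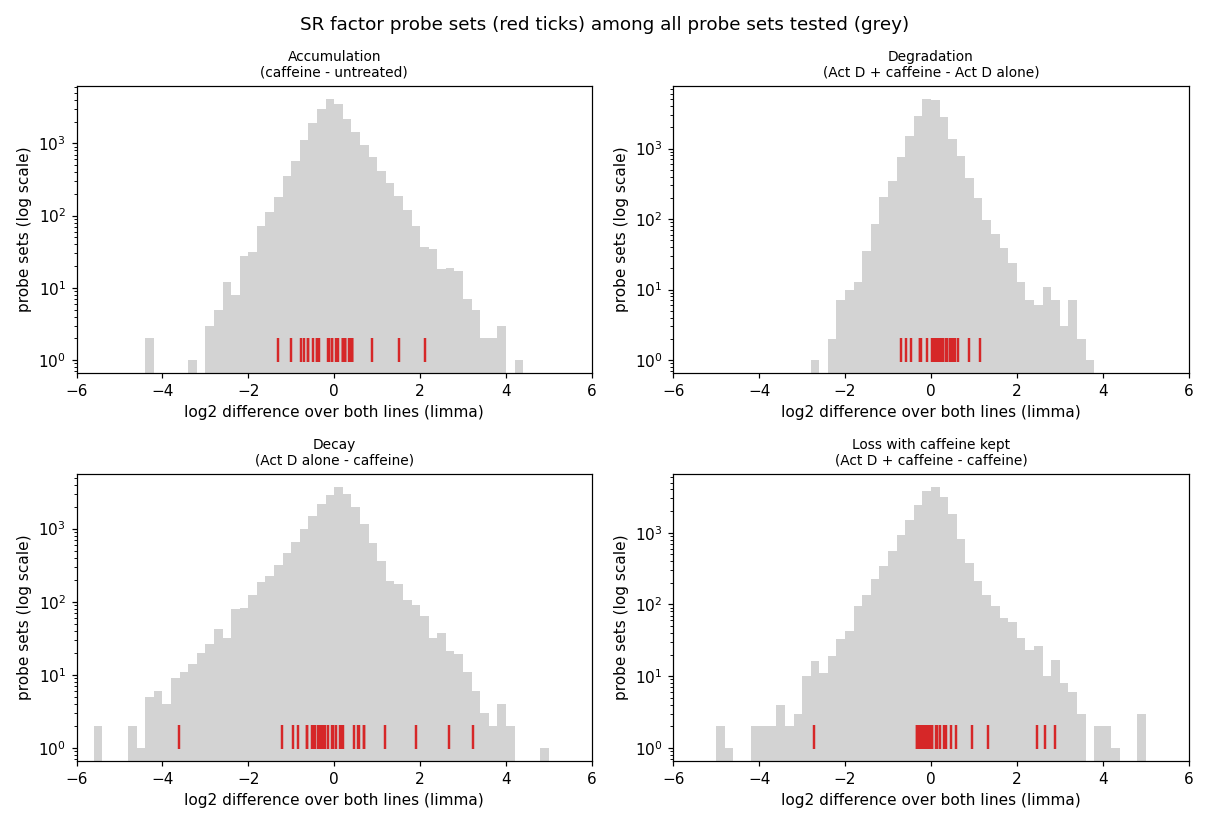
Number of probe sets (vertical axes, log scale) by limma log2 difference over both lines (horizontal axes) for all 21453 probe sets tested (grey), with a red tick for each of the 32 SR factor probe sets, in the 4 comparisons. SRSF3 232392_at is the lone red tick at -3.61 in decay, and the other ticks in decay lie between -1.22 and 3.24.

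Probe sets of 1 gene were set against each other, since transcripts with a premature stop may be detected by only some of them. Each tested probe set was compared with the brightest of its gene, which gave 23 pairs for the SR factors and 7665 over all genes. SRSF3 232392_at minus 208672_s_at was -8.56 with actinomycin D alone and -4.97 with caffeine in LNCaP, and -8.37 with actinomycin D alone and -5.66 with caffeine in 22Rv1. The gap was widest with actinomycin D alone in both lines. By limma the difference in decay fell by 3.15 ± 0.30 (SE, n = 2 lines, adjusted p = 0.0455), 1 of 23 pairs called lower and 0 higher, against 0.0522% and 0.13% of all pairs. Without any 1 of the 8 arrays, 0 pairs of any gene were called in decay, and the estimate lay between -3.54 and -2.76. The size of this difference rests on signals of 232392_at under 4, and with those set to 4 it was -2.47 in LNCaP and -1.56 in 22Rv1. The fit of pairs in decay was added after seeing the data. By limma 208672_s_at itself differed by -0.46 in decay, so the pair largely restates the fall of 232392_at given above. The limit of the filter given there for 232392_at holds for the pair too.

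The TRA2A and SRSF4 pairs differed in the opposite direction. TRA2A 229574_at minus 204658_at was -1.90 with actinomycin D alone and -4.14 with caffeine in LNCaP, and -2.30 with actinomycin D alone and -4.62 with caffeine in 22Rv1, a limma difference of 2.28 ± 0.26 (SE, n = 2 lines, adjusted p = 0.0592). TRA2A 213593_s_at differed by 3.61 (limma adjusted p = 0.0927) and SRSF4 242837_at by 3.14 (limma adjusted p = 0.0984). At an unadjusted p under 0.05, 9 of the 23 pairs were higher and 1 lower in decay, against 1094 and 284 of 7665 over all genes. In accumulation 0 of 23 pairs were called in either direction, against 0.0652% and 0.0522% of all pairs, and 2 were higher and 4 lower at an unadjusted p under 0.05, against 469 and 488 of all pairs. In degradation and in loss with caffeine kept 0 of 23 pairs were called, against 0% of all pairs, with 1 and 5 pairs at an unadjusted p under 0.05, against 616 and 768 of all pairs.

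**Figure D4:**
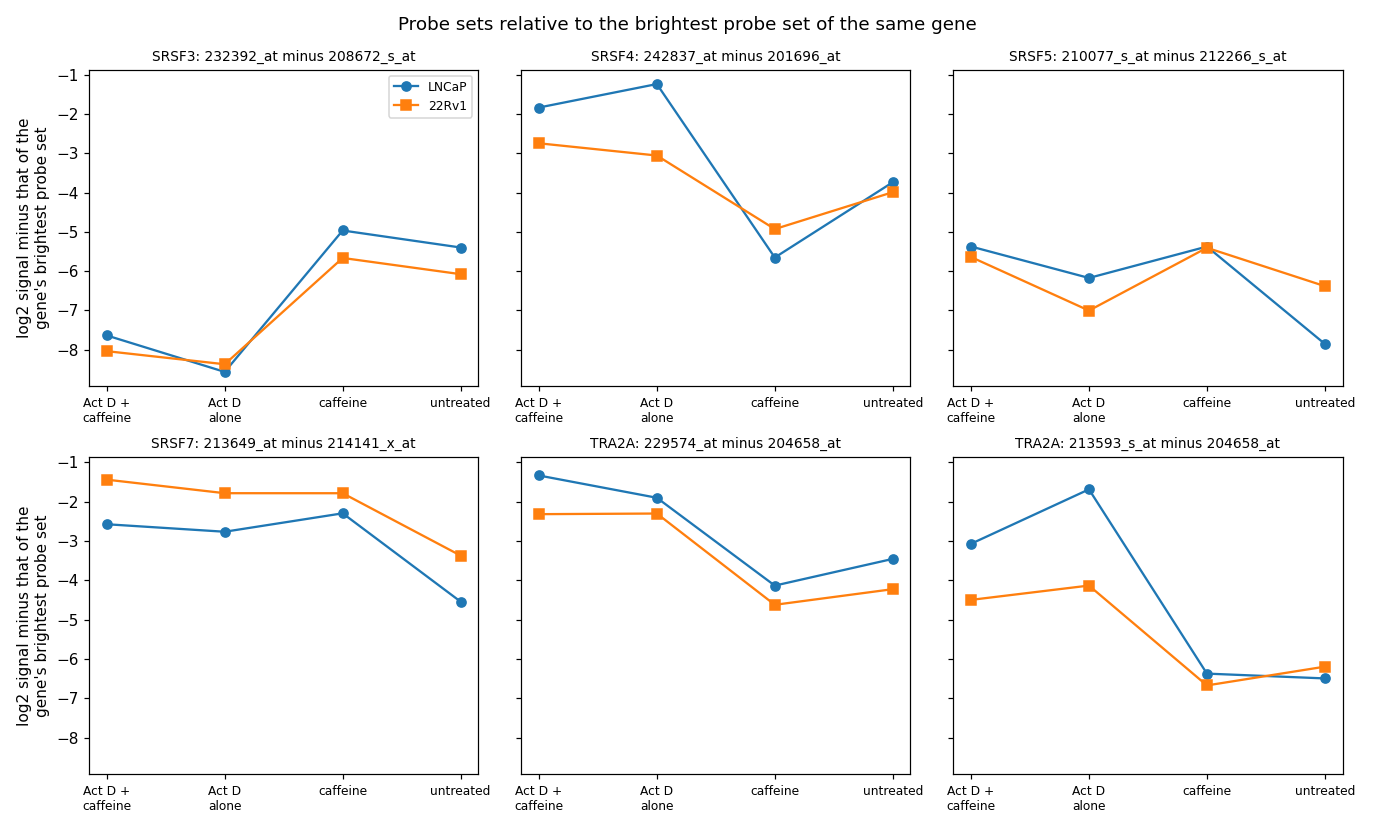
Log2 signal of 6 probe sets minus that of the brightest probe set of the same gene (vertical axes) on each array (horizontal axes), with LNCaP in blue and 22Rv1 in orange. SRSF3 232392_at was lowest with actinomycin D, the TRA2A and SRSF4 probe sets were highest with it, and SRSF5 210077_s_at and SRSF7 213649_at were lowest untreated except for 22Rv1 SRSF5, where actinomycin D alone was lowest.

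The spread of the differences among probe sets of a gene was also measured over genes with at least 3 detected probe sets. In decay the median range was 1.80 over 8 SR factor genes in LNCaP and 1.45 over 7 in 22Rv1, against 1.06 over 2033 genes and 0.77 over 1948 genes. A range of 2 or more was seen in 3 of the 8 genes in LNCaP and 2 of the 7 in 22Rv1, where 23.2% and 8.83% of all genes had it. In accumulation the median range was 1.65 and 1.10 over 6 SR factor genes in LNCaP and 22Rv1, against 0.72 over 1951 genes and 0.84 over 1928 genes. The number of probe sets per gene was not matched in these descriptions.

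Between the untreated arrays 4 of 32 members were higher by 1 or more in LNCaP and 5 in 22Rv1. Among all detected probe sets these shares were 20.3% and 19.1%. The 4 were SRSF1 226419_s_at, 229246_at and 239384_at and SRSF10 213594_x_at, and the 5 were SRSF10 225348_at and 206095_s_at, SRSF6 208804_s_at, SRSF5 210077_s_at and SRSF7 213649_at. SRSF10 225348_at had 4.33 with actinomycin D and caffeine, 3.79 with actinomycin D alone, 4.69 with caffeine and 4.18 untreated in LNCaP, and 8.91 with actinomycin D and caffeine, 8.59 with actinomycin D alone, 8.94 with caffeine and 8.60 untreated in 22Rv1, so all LNCaP arrays lay below all 22Rv1 arrays. SRSF1 226419_s_at had 7.98 with actinomycin D and caffeine, 8.92 with actinomycin D alone, 8.91 with caffeine and 9.61 untreated in LNCaP, and 4.82 with actinomycin D and caffeine, 5.29 with actinomycin D alone, 4.11 with caffeine and 6.02 untreated in 22Rv1, with the lines in the opposite order. The brightest SRSF1 and SRSF10 probe sets differed between the untreated arrays by 0.63 and -1.50, LNCaP minus 22Rv1. With 1 untreated array per line these differences have no test.

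TRA2B 210180_s_at had 6.97 with actinomycin D and caffeine, 5.86 with actinomycin D alone, 5.04 with caffeine and 4.65 untreated in LNCaP, and 4.62 with actinomycin D and caffeine, 4.78 with actinomycin D alone, 4.65 with caffeine and 4.66 untreated in 22Rv1. In LNCaP actinomycin D with caffeine was the highest and untreated the lowest, and in 22Rv1 they lay within 0.16 of each other. The brighter TRA2B probe set 200892_s_at lay between 9.15 and 10.1 on the 8 arrays.

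Genes that act with the SR factors were described by the brightest probe set of each gene. Their lists were chosen with earlier results of these data known, so the counts below are not independent of the data. Of 9 listed kinases that phosphorylate SR proteins 8 were tested, and of these 3 were called lower in decay and 0 higher by limma, where 1.86% and 0.475% of all probe sets were called. CLK1, a kinase of the arginine/serine domain whose own transcript is spliced in a regulated way, differed in decay by -3.97 in LNCaP and -3.64 in 22Rv1 (limma adjusted p = 0.0194). CLK4 differed by -2.25 and -2.76 (limma adjusted p = 0.0289) and DYRK1A by -2.25 and -2.59 (limma adjusted p = 0.0369). CLK1 was also 2.10 and 1.95 higher in accumulation and 3.17 and 2.50 higher in degradation, with limma adjusted p of 0.0644 and 0.0875, and CLK4 was 1.65 and 1.11 higher in accumulation. The median decay of the kinases was -0.69 and -0.82 in LNCaP and 22Rv1, against -0.09 and 0.03 over the brightest probe sets of all genes.

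Of 27 other SR-related proteins tested (29 listed), 1 was called lower in decay, RSRC2 at -1.26 and -1.04 (limma adjusted p = 0.0482), and 0 higher, and their median decay was -0.22 in LNCaP and -0.30 in 22Rv1. RBM39 and RSRC2 were the 2 with the largest smaller-of-both-lines accumulation, at 1.05 and 1.02 for RBM39 and 0.99 and 1.03 for RSRC2. Of 25 other splicing factors with transcripts known to be NMD substrates (26 listed), 1 was called lower in decay and 0 higher, RBM5 at -1.12 and -1.23 (limma adjusted p = 0.0443), with a median decay of -0.39 and -0.19. PTBP2, the neuronal polypyrimidine tract binding protein, was 1.78 and 1.22 higher in accumulation, and HNRNPA1 was 1.65 and 1.17 higher. Of 6 NMD factors tested (10 listed) 0 were called in any comparison by limma, with 3 higher in accumulation and 3 lower in decay at an unadjusted p under 0.05, as were 2156 and 2495 of all 21453 probe sets. The NMD factors had a median of 0.53 (LNCaP) and 0.63 (22Rv1) in accumulation, against -0.02 and -0.02 over all genes. SMG9 was 1.02 and 0.96 higher in accumulation and SMG6 0.59 and 1.58 higher. In accumulation and degradation limma called 0 genes of these 4 lists in either direction.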

How the data were processed

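Total RNA of 8 cultures was hybridised to Affymetrix U133 Plus 2.0 arrays, 1 per cell line and treatment. The authors deposited log2 signals per probe set, made with gcRMA (background correction, quantile normalization and summarisation; version not given in the sources used here), and these were used as they are. The distribution is identical on all arrays (median 2.75, with 20975 probe sets at 4 or more). The number of arrays, not a read depth, limits the precision. The SE and p-values of limma rest on how far the lines differed in their response, pooled over the 4 treatments and moderated over all probe sets. They do not measure the spread between cultures of a line.

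Probe sets took their gene from the array annotation: 41097 have 1 symbol, 1801 several and 11777 none. Gene positions are those of RefSeq on GRCh38.p14. Differences between treatments came from limma 3.58.1 under R 4.3.3 (lmFit and eBayes, all 8 arrays, treatment plus cell line as a block) on the 21453 probe sets that averaged 4 or more, with Benjamini-Hochberg adjustment over all of them and a threshold of 0.05. Within a gene, each tested probe set minus the brightest was fitted likewise over 7665 pairs. The within-gene fits for decay and loss with caffeine kept, and scaling on the 18 hybridization probe sets, were added after seeing the data. Differences of 1 or more on the log2 scale in single lines carry no test. The scripts were tested on simulated data.

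All probe sets of the members were described. Values on each array are given for the brightest probe set of each gene and for those called by limma, called within a gene, or different by 1 or more in the same direction in both lines. From each other gene list the genes called and the 2 with the largest smaller-of-both-lines accumulation are named. The members and lists were chosen with earlier results of these data known. Alternatives were no cell line block, a variance trend, robust variances, the 4 compared arrays, other filters, folds, floors and scalings, and leaving out each array.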

Additional observations from a re-analysis of the deposited data

Results flagged for a closer look

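In 2 probe sets the lines moved in opposite directions by at least 0.5 on the log2 scale. SRSF1 226419_s_at differed in loss with caffeine kept by -0.938 in LNCaP and 0.704 in 22Rv1. SRSF10 204299_at differed in degradation by -0.527 in LNCaP and 0.717 in 22Rv1, and in loss with caffeine kept by -0.761 in LNCaP and 0.524 in 22Rv1; these comparisons share the actinomycin D with caffeine arrays. With poly-A scaling the opposite directions in loss with caffeine kept were lost, at -2.08 in LNCaP and -0.06 in 22Rv1 for SRSF1 226419_s_at and -1.90 in LNCaP and -0.24 in 22Rv1 for SRSF10 204299_at. With 1 array per line and treatment, this contrast of the lines was not tested.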

How the results depend on the processing

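The member calls of limma moved with the fit. In accumulation, called higher were 0, and 1 with a variance trend, with a mean of at least 6 or with poly-A scaling. Hybridization scaling gave 2. Over all 21453 probe sets they were 9, then 113 with a variance trend, 159 with poly-A scaling and 909 with hybridization scaling. A mean of at least 6 gave 164 of 14167. In decay, called higher was 1, and 0 with no cell line block, with the 4 compared arrays alone or with no filter, 2 with a variance trend, with a mean of at least 6 or with poly-A scaling, and 3 with hybridization scaling, and 0 to 1 without single arrays. Over all probe sets, called higher in decay were 102, then 148 with a variance trend, 59 with poly-A scaling and 206 with hybridization scaling. With a mean of at least 6 they were 179 of 14167. The 2 members with poly-A scaling were TRA2A 213593_s_at and SRSF4 242837_at (limma adjusted p = 0.00867 and 0.0282). TRA2A 229574_at, called without scaling, was not called there (limma adjusted p = 0.174). TRA2A 213593_s_at entered the test only through the arrays with actinomycin D, so its call is read with that limit. Called lower in decay was 1, SRSF3 232392_at, and 0 with no cell line block, with the 4 compared arrays alone or with no filter. A mean of at least 6 also gave 0, but left SRSF3 232392_at, with a mean of 4.80, out of the test. There were 2 with a variance trend, 24 with poly-A scaling and 3 with hybridization scaling, and 0 to 1 without single arrays. Over all probe sets, called lower in decay were 399, then 562 with a variance trend, 17490 with poly-A scaling and 1644 with hybridization scaling. In loss with caffeine kept, 3 members were called higher and 18 lower with poly-A scaling, against 0 and 0 without scaling. Hybridization scaling gave 3 higher and 1 lower. Over all 21453 probe sets these scalings called 72 higher and 11137 lower, and 79 higher and 480 lower. The pair of SRSF3 called in decay was lost, at 0, with no cell line block, with the 4 compared arrays alone, with no filter and without each single array (0 to 0). A mean of at least 6 left this pair out of the test. With that filter 1 pair was called higher in decay and 1 in loss with caffeine kept, against 18 and 3 of all 4313 pairs.

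Of differences of 1 or more in both lines, accumulation gave 1 instead of 2 with a floor of 6, and 2 instead of 3 higher in decay and in loss with caffeine kept. Over all probe sets, 409 of 13346, 295 of 13413 and 143 of 13240 were higher with that floor in these 3 comparisons. Poly-A scaling gave 1 of 31 members higher in degradation, where 694 of all 19759 probe sets were. In decay it gave 0 higher and 21 lower, against 22 and 10678 of all 20013. In loss with caffeine kept it gave 4 lower (all probe sets 3887 of 19942). With the brightest probe set of each gene alone and no scaling, these counts were 0. The probe sets that were called or past 1 in both lines kept their direction under each alternative run. Poly-A scaling turned the sign of 10 of 32 member estimates in decay and 11 in loss with caffeine kept, among them SRSF7 201129_at in decay, at -0.67 instead of 0.68, and SRSF10 210178_x_at, at -0.65 instead of 0.70. The member median of accumulation was -0.02 without the 22Rv1 untreated array, against 0.15. The cause of these changes was not tested, apart from the spike-in shift that the scaling removes by construction. A shortage of arrays (3 residual degrees of freedom) and signals near 4 limit every value.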
